A study of Mus musculus with 13 samples.

Results

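The brush border enzymes are 8 genes, taken by symbol out of the 16204 genes counted in 13 CEL-seq libraries of mouse small intestine cells: Sis, Mgam, Lct, Anpep, Enpep, Mep1b, Alpi and Ces2e. CEL-seq marks the 3′ end of each transcript with a barcode for its cell and another for the molecule, so a transcript gives 1 count whatever its length. Each library held 96 cell barcodes, the same 96 in all libraries, and 892 of 1248 barcodes had the 3000 transcripts without spike-in RNA required here. Every mouse carried Lgr5-CreERT2, a tamoxifen-inducible Cre made in Lgr5+ stem cells, and the Rosa26LSL-YFP reporter, on C57Bl6/J, so that YFP (traced) marks stem cells labelled at induction and their offspring. Traced cells sorted 5 days after induction gave 5 libraries. At 3 weeks there was 1 library of traced cells gated on CD24 and 1 with a label of non-traced CD24+; at 8 weeks, cells gated on CD24 gave 3 traced and 2 non-traced libraries, and traced cells with no such gate gave 1. CD24 is a surface protein that Paneth cells and other secretory cells carry at high levels. The ages of the mice and whether replicates came from separate mice are not given in the sources used here, so p-values measure the spread between libraries, which may be technical.

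The brush border is the carpet of microvilli on the luminal face of the absorptive enterocyte, where the last steps of digestion take place on enzymes anchored in the membrane. Enterocytes arise from Lgr5+ stem cells in the crypt, pass through dividing progenitors, and switch on the digestive enzymes as they leave the crypt and climb the villus. Sis (sucrase-isomaltase), Mgam (maltase-glucoamylase) and Lct (lactase) split sugars, Anpep (aminopeptidase N), Enpep (aminopeptidase A) and Mep1b (the beta subunit of the protease meprin) split peptides, and Alpi (intestinal alkaline phosphatase) removes phosphate groups, among others from bacterial lipopolysaccharide. Ces2e is a carboxylesterase, an enzyme that splits esters and belongs to a family found mainly inside the endoplasmic reticulum, so it is not an enzyme of the microvillus surface itself.

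In the GRCm38 annotation all 8 are protein-coding genes: Sis (chr3:72888557-72967863) and Enpep (chr3:129269175-129332720), Alpi (chr1:87098002-87101606) and Lct (chr1:128284756-128328318), Mgam (chr6:40628831-40769123), Anpep (chr7:79821803-79861059) and Ces2e (chr8:104926260-104934672), besides Mep1b. No other gene in the files overlaps any of them, although the annotation has Gm44974 on the strand of Anpep, and Gm42628 and Gm6378 on the strands opposite Enpep and Mep1b. Ces2e lies in a family of similar carboxylesterase genes, and how reads shared between close copies were assigned is not given in the sources used here. The 250 bases before the start are shown for 4 members because Sis, Lct and Alpi were high mainly in mature enterocytes while Mgam was also counted in stem-like cells. The windows are, in GRCm38.p6 of RefSeq, chr3:72967864-72968113 (minus strand, Sis), chr1:128328319-128328568 (minus strand, Lct), chr1:87101607-87101856 (minus strand, Alpi) and chr6:40628581-40628830 (plus strand, Mgam). Capitals mark exact matches, on either strand, to the core motifs of 4 families of gut transcription factors: TTTATG for CDX factors, GTTAAT for a part of the HNF1 site, AGATAA for the GATA family and CAAAGTCCA for HNF4.
Sis: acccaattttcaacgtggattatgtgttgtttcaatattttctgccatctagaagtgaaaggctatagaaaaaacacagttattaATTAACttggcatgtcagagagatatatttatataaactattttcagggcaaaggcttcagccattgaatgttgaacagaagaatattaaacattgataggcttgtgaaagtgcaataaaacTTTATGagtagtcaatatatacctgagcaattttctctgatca
Lct: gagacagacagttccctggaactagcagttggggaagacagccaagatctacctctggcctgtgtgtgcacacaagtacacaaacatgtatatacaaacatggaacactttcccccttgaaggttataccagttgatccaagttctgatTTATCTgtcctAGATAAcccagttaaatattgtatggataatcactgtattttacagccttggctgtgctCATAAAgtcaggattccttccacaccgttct
Alpi: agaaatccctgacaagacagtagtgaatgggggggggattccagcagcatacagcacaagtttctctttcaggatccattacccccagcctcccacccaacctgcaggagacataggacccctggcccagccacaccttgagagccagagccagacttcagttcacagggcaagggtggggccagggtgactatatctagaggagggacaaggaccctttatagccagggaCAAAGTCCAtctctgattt
Mgam: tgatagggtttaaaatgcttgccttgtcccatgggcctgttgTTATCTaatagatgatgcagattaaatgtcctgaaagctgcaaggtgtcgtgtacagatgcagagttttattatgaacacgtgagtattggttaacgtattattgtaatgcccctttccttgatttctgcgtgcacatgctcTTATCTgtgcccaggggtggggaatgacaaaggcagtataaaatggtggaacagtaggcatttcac

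Promoter windows were found for 7 members, all but Mep1b. Sis held TTTATG with its first base 43 bases before the start, and GTTAAT on the other strand at 165 bases. Lct held TTTATG on the other strand at 31 bases, and AGATAA in both orientations at 90 and 101 bases. Mgam held AGATAA on the other strand at 66 and at 208 bases, and Alpi held CAAAGTCCA at 19 bases. Anpep, Enpep and Ces2e held none of the 4. Among all 32851 promoter windows of this length, TTTATG occurred in 10.8%, AGATAA in 9.99%, GTTAAT in 6.43% and CAAAGTCCA in 0.384%. No marked match overlapped another. The motifs were chosen with the windows in view, and a match describes letters, not a binding site.

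The libraries held 421675 to 1385266 transcripts, and their kept cells had median depths of 5412 to 14458. Cells were clustered without the 8 enzymes and named from other markers, which gave 46 mature enterocyte-like, 99 early absorptive-like, 146 stem-like, 118 proliferating-like, 72 Paneth-like, 102 goblet-like, 138 tuft-like and 110 enteroendocrine-like cells; 61 stayed unnamed. The mature enterocyte-like cells fitted their name: all 14 markers of the list (apolipoproteins, fat and sugar handling genes) were raised, 5 of them among the 10 leading genes, and the stem list was 0.808 to 4.76 per 10000 transcripts in them against 22.1 to 28.01 in stem-like cells of the 5-day libraries. The early absorptive-like class is less pure. Its larger cluster had 5 markers of its own list raised and all 12 proliferating markers, with 1 leading gene from each list. A rule that put a lineage before proliferating in a tie gave the name. The same early absorptive list had 9 markers raised in the mature enterocyte-like cells. Of the 59 5-day cells of the early class 58 lay in that larger cluster. Of its 21 cells from 8-week CD24+ libraries 17 lay in another, which also had 8 tuft markers raised. Of the 68 kept cells of 5-day replicate 4, 41 fell in an unnamed cluster with goblet and enterocyte markers raised together. The library with the 3-week non-traced label had Cd24a at 5.44 per 10000, where the other CD24+ libraries had 15.2 to 36.9 and the ungated ones 3.74 to 6.07, and its cells carry a name with YFP and no CD24 in a second deposited table; its values are given under its label and enter no test. Fabp6, a bile acid carrier protein of the ileum, was at 2.14 per 10000 and in 51 of 60 cells of 5-day replicate 5, and at 0.0134 to 0.102 in the other 5-day libraries.

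Most of the set was found together in mature enterocytes. In the 32 mature enterocyte-like cells of the 5-day libraries, and in the 14 from later ones, most of the 8 enzymes were found in the same cell. Ces2e and Sis had counts in all 46 cells, Anpep and Mgam in all but 1 each, Alpi in all but 3, Enpep and Mep1b in all but 4 each, and Lct in 25. The level in a single cell ran from 1.32 to 53.6 per 10000 for Sis (median 13.5), from 7.91 to 52.1 for Ces2e (median 17.3) and from 0 to 32.03 for Lct (median 0.745). Lct thus differed from the others in being undetected in 21 of the 46 cells and high in others. Every mature cell had at least 5 of the 8 enzymes, and 25 had all 8.

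Because deeper cells show more genes, every cell was then thinned at random to 3000 transcripts. At that depth 34.8% of mature enterocyte-like cells still had all 8 enzymes and 89.1% had at least 5. Of the 99 early absorptive-like cells 0 had all 8, which allows a share of up to 3.03%, and 3 had 5 or more, although 52.5% had at least 2. Stem-like cells had 2 or more enzymes in 36.3% of cells, proliferating-like cells in 22.9%, enteroendocrine-like cells in 18.2%, goblet-like cells in 17.6% and Paneth-like cells in 9.72%. These shares pool all libraries and differ by library group, so they do not rank the classes. In the 5-day libraries 54.7% of stem-like, 53.8% of goblet-like and 33.3% of Paneth-like cells had 2 or more. In the 8-week traced CD24+ libraries the shares were 10.7%, 9.09% and 0%. The 5-day libraries held no tuft-like cells. Of 138 tuft-like cells 0 had 2 or more, which allows a share of up to 2.17%, and 15.2% had 1. Before thinning, 89.9% of early absorptive-like, 69.9% of stem-like, 54.2% of Paneth-like and 2.90% of tuft-like cells had 2 or more, with median depths from 6619 transcripts in enteroendocrine-like to 18080 in Paneth-like cells.

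**Figure D1:**
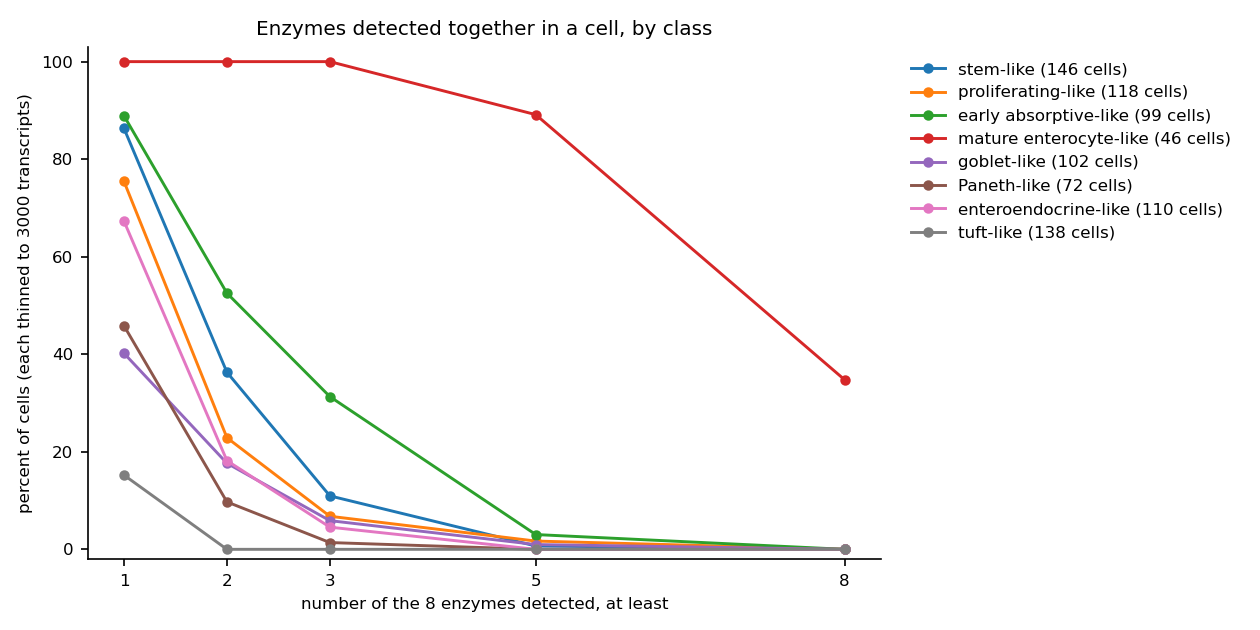
Percent of cells (vertical axis) with at least 1, 2, 3, 5 or 8 of the 8 enzymes (horizontal axis), each cell thinned to 3000 transcripts, by class over all libraries. The mature enterocyte-like line stays at 100% up to 3 enzymes and ends at 34.8% for all 8, while the line of early absorptive-like cells goes from 88.9% with 1 enzyme to 31.3% with 3.

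Within the mature cells the enzymes varied together from cell to cell. All 28 pairs of enzymes had a positive Spearman correlation of their levels over the 46 cells, from 0.319 (Alpi with Lct) to 0.757 (Mep1b with Mgam), with a median of 0.539. In the early absorptive-like cells 23 of 28 were positive, with a median of 0.113 and a highest value of 0.401 (Sis with Ces2e). These correlations describe cells that share libraries and differ in depth and class make-up, and counts were sparse in the early cells.

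The step from early absorptive to mature cells was compared within the 5-day libraries, where both classes descend from cells traced at the same time. Replicates 1, 2, 3 and 5 had at least 3 cells of both classes; replicate 4 had 2 mature cells and was left out. Summed over the 8 enzymes, mature enterocyte-like cells held 85.02, 56.1, 101 and 54.4 transcripts per 10000 in these libraries, and early absorptive-like cells 14.1, 10.7, 9.23 and 9.54. The mature level was 5.26 to 10.9 times the early one.

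Among the sugar-splitting enzymes, Sis stood at 12.1, 9.998, 15.1 and 8.01 per 10000 in mature cells and at 1.13, 1.14, 1.20 and 1.05 in early cells. Its level rose 7.88-fold, a log2 fold change of 2.98 ± 0.25 (SE; edgeR quasi-likelihood, adjusted p = 5.92e-16, n = 4 libraries per class). Lct stood at 3.73, 3.27, 6.94 and 0.883 in mature cells and at 0.266, 0.332, 0.224 and 0.326 in early cells, a log2 fold change of 3.76 ± 0.44 (adjusted p = 1.32e-10). Mgam stood at 11.3, 7.44, 9.63 and 6.21 in mature cells and at 3.50, 2.86, 1.79 and 3.23 in early cells, the smallest difference of the 8 at 1.43 ± 0.25 on the log2 scale (adjusted p = 1.88e-06). The mature and early libraries did not overlap for any of the 3, and the mature level of replicate 5, the library with Fabp6, was the lowest for each. Without replicate 5 all 8 enzymes were still called.

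Of the peptide-splitting enzymes, Anpep and Mep1b had the highest fitted values of the 8, within 1 SE of each other. Anpep stood at 12.9, 5.55, 11.96 and 6.204 per 10000 in mature cells against 0.695, 0.332, 0.523 and 0.261 in early cells, a log2 fold change of 4.34 ± 0.35 (adjusted p = 1.36e-16). Mep1b, at chr18:21061923-21100199, rose by 4.07 ± 0.37 on the log2 scale, from 0.261 to 0.379 in early cells to between 3.93 and 10.2 in mature cells, and had a higher fold than Anpep in replicates 1 and 3. Enpep rose by 3.01 ± 0.38, from 0.189 to 1.07 up to between 3.09 and 5.67 per 10000. Alpi stood at 8.64, 5.27, 16.4 and 5.33 in mature cells and at 1.014, 0.618, 0.373 and 0.589 in early cells (log2 fold change 3.30 ± 0.32, adjusted p = 1.95e-13). Ces2e was high in both classes: 20.99, 16.3, 25.997 and 19.3 per 10000 in mature cells and 6.15, 4.81, 4.45 and 3.43 in early cells, a rise of 3.89-fold (log2 fold change 1.96 ± 0.20, adjusted p = 9.22e-13).

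All 8 enzymes were called higher in mature cells, in a comparison in which 21.2% of the 1121 genes tested were called higher, 42.7% were called in either direction and 37.4% had libraries that did not overlap. The median log2 fold change was 3.15 for the 8 and -0.04 for all genes tested. All 8 passed the filter on low counts, but 6 of them (all but Mgam and Ces2e) failed it when early absorptive-like and stem-like cells were compared, so they entered through the mature cells and could only differ in that direction.

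**Figure D2:**
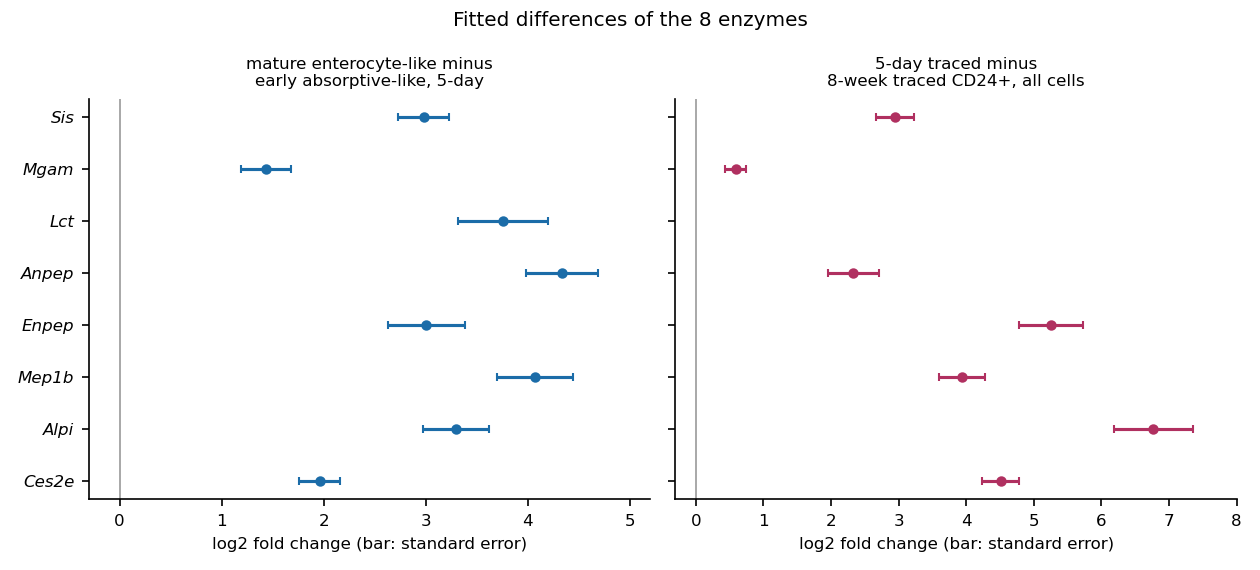
Fitted log2 fold change (horizontal axis, bar for the standard error) of each enzyme between mature enterocyte-like and early absorptive-like cells of 5-day libraries (left) and between 5-day traced and 8-week traced CD24+ libraries (right). Mgam has the smallest value in both panels, 1.43 and 0.59; Lct is not drawn on the right because the 8-week libraries held 0 transcripts of it.

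Genes of the same apparatus were read from lists. Of 16 genes of brush border structure, 8 could be tested and all 8 rose, among them the actin bundlers Vil1 (villin, log2 fold change 2.07) and Pls1 (plastin 1, 2.29), the actin regulator Eps8l2 (2.86) and Cdhr5 (2.06), a cadherin of the links between microvilli. The 3 other carboxylesterases that could be tested, Ces1f (2.42), Ces2a (2.40) and Ces2g (1.10), rose too, as did both testable transporters, the glucose carrier Slc5a1 (2.84; one of the markers that named the class) and Slc3a2 (1.25), a subunit of amino acid carriers. Ces2g and Slc3a2 were not called with DESeq2 (adjusted p above 0.05) or with no filter on low counts. The call of Ces2g was kept in 2 of 6 alternative analyses, and that of Slc3a2 in 5 of 7. Of 15 absorptive transcription factors 6 could be tested. Creb3l3, a membrane-bound regulator of lipid genes, rose by 4.77 and Hnf4g by 1.44, Cdx1 fell by 0.93 on the log2 scale (a call that 6 of 8 alternative analyses lost, the lowest adjusted p among those being 0.0923), and Hnf4a (-0.47), Klf5 (0.00) and Gata4 (0.02) were not called. Among markers of gut regions, the proximal Fabp1 (3.84) and Apoa4 (3.67), both markers that named the class, and the distal Slc51a (2.56), a bile acid carrier, rose, and the proximal Gata4 was not called. In early against stem-like cells, 4 of the 8 structure genes passed the filter on low counts. None of these carboxylesterases and transporters passed it, nor did Creb3l3, Hnf4g and Slc51a. These genes and the other structure genes entered through the mature cells and could only differ in that direction.

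To see whether the enzymes rose step by step, the 91 mature and early cells of the 5-day libraries were ordered by their summed enterocyte markers, none of them an enzyme, and divided into 4 groups of 22 or 23 cells. The markers were read in one random part of the counts and the enzymes in the other. From the lowest to the highest group Sis stood at 0.713, 1.63, 1.79 and 15.8 per 10000, and Alpi at 0.658, 0.882, 1.89 and 12.02. Both stayed low through 3 groups and were high in the last, of whose 22 cells 21 were mature enterocyte-like. Lct showed this most sharply, at 0.165, 0.204, 0.398 and 5.45, so that the third group held 7.30% of the level of the last. Ces2e followed a more even course, at 2.58, 6.31, 9.55 and 22.8, and reached 41.8% of its last level in the third group. Mgam started high and moved little at first, at 2.58, 3.19, 4.08 and 11.2. The third group stood at 9.14% to 20.01% of the last for Sis, Alpi, Anpep, Enpep and Mep1b and at 36.4% for Mgam. The summed markers ran from 2.48 to 18.1, from 18.3 to 33.8, from 37.96 to 70.7 and from 72.1 to 795 in the 4 groups. The last group thus spans by far the widest range, and a sharp late rise cannot be told apart from this width. No test was made of this ordering.

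**Figure D3:**
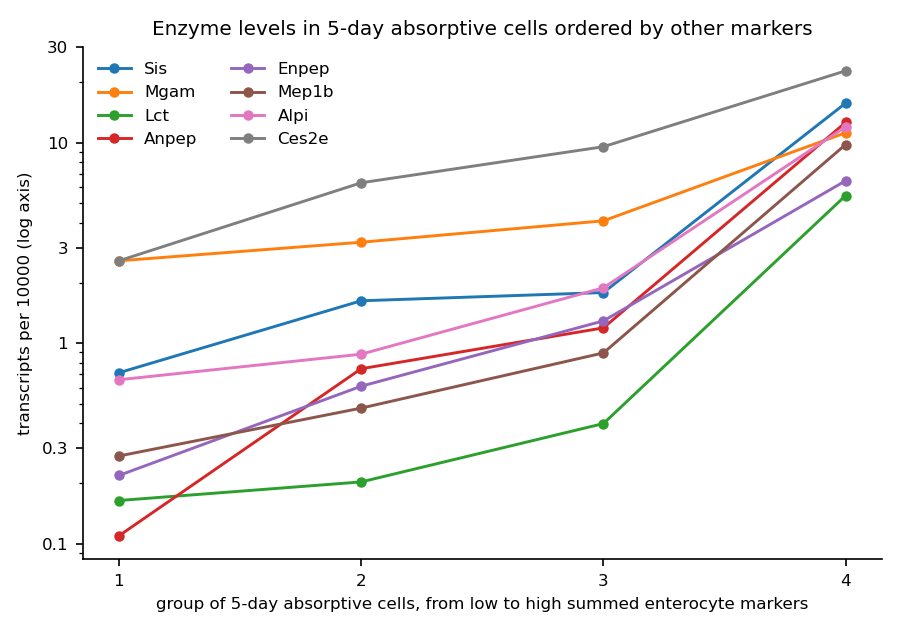
Level of each enzyme (vertical log axis, transcripts per 10000) in 4 groups of 5-day absorptive cells ordered from low to high summed enterocyte markers (horizontal axis), pooled over libraries. The lines of Ces2e and Mgam start at 2.58 and lie above the other 6 in the first 3 groups, while Lct goes from 0.398 to 5.45 between the last 2.

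Stem-like cells also had counts of Mgam and Ces2e. In the 5 5-day libraries stem-like cells held Mgam at 3.42, 2.60, 2.27, 4.49 and 4.36 per 10000 and early absorptive-like cells at 3.50, 2.86, 1.79, 2.71 and 3.23. The classes overlapped, and the fitted difference (early minus stem, log2) was -0.19 ± 0.21 (edgeR quasi-likelihood, adjusted p = 0.593, 95% interval -0.60 to 0.23). Ces2e stood at 3.75, 3.18, 2.11, 2.43 and 3.22 in stem-like cells and at 6.15, 4.81, 4.45, 2.44 and 3.43 in early cells, higher in the early cells of all 5 libraries, with a log2 difference of 0.31 ± 0.20 that was not called (adjusted p = 0.295, interval -0.09 to 0.70). So 0 of the 2 enzymes that could be tested were called, and 0 had an unadjusted p under 0.05, in a comparison that called 24.4% of 1138 genes and had 35.1% at an unadjusted p under 0.05; DESeq2 called 0 as well.

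The other 6 enzymes were too low there to be tested. Sis stood at 0.0833 to 0.71 per 10000 in stem-like cells and at 1.13, 1.14, 1.20, 0.142 and 1.05 in early cells. With no filter on low counts Sis was called higher in early than in stem-like cells (log2 fold change 2.00 ± 0.49, adjusted p = 0.00307), and Enpep was not (1.92 ± 0.74, adjusted p = 0.228). Of 16 brush border structure genes 4 could be tested in this step and 1 rose, the galactose-binding lectin Lgals4 (0.41, adjusted p = 0.0187); none of 3 transcription factors was called.

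Transcripts of the enzymes were also counted in classes that should lack them. In the 5-day Paneth-like cells of 3 libraries Ces2e stood at 2.09, 1.93 and 0.962 per 10000, Mgam at 1.20, 0.637 and 1.74, and Sis at 0.0793, 0 and 0.192. The part of free RNA from lysed enterocytes in the low levels was not tested. The Ces2e level of 5-day stem-like cells, 2.11 to 3.75, lay above that of 5-day Paneth-like cells, though the closest values were 2.11 and 2.09. It overlapped that of 5-day goblet-like cells, 1.41 to 2.60, and the 7 5-day enteroendocrine-like cells had Ces2e at 3.86 (exact 95% counting interval 2.25 to 6.17). In goblet-like cells of these libraries Mgam was at 1.18 to 3.36. In the 8-week traced CD24+ libraries, which had 0 mature enterocyte-like cells among 221 (a share of up to 1.36%), Ces2e stood at 0.0934 to 0.393 in stem-like and at 0 to 0.242 in Paneth-like cells. The ungated 8-week library, which had 3 mature cells, held Ces2e at 0.356 in stem-like and 0.507 in proliferating-like cells. Its goblet-like and enteroendocrine-like cells held it at 0.

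**Figure D4:**
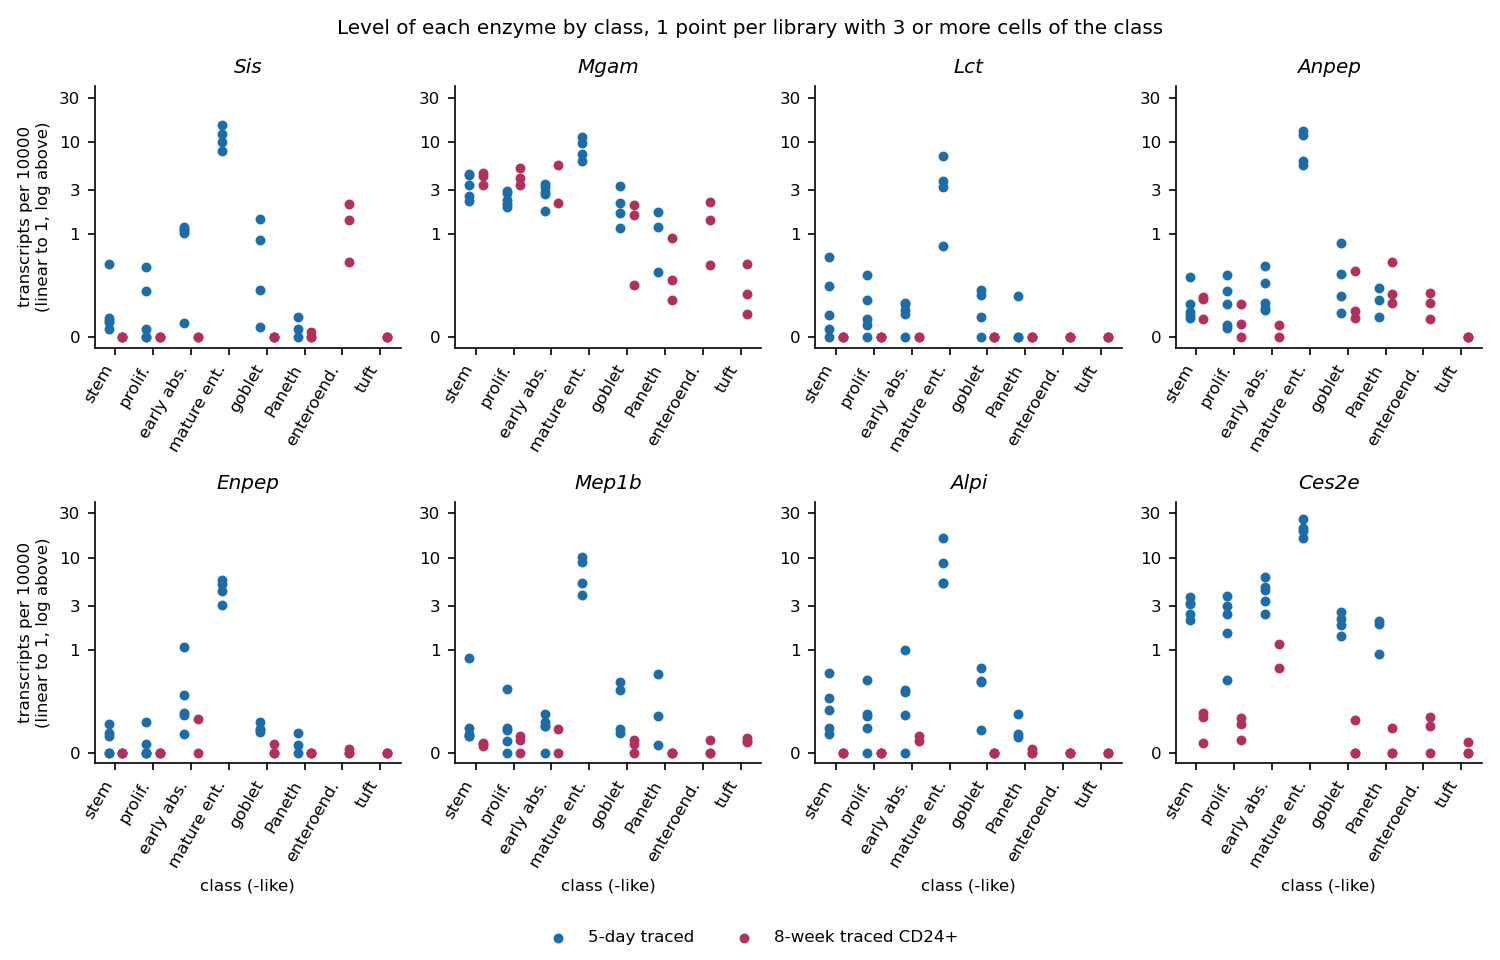
Level of each enzyme (vertical axis, transcripts per 10000, linear up to 1 and logarithmic above) by class in 5-day traced and 8-week traced CD24+ libraries, with 1 point per library that had at least 3 cells of the class. Mgam is the enzyme with levels above 3 in the stem-like and proliferating-like cells of the 8-week libraries; Sis reaches 2.12 in their enteroendocrine-like cells.

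Mgam was also counted in stem-like cells of the 8-week traced CD24+ libraries, which had no mature enterocyte-like cells. They held it at 4.54, 4.27 and 3.45 per 10000, and those of the ungated 8-week library, which had 3 mature cells, at 5.11, values within or just above the 5-day range of 2.27 to 4.49. Proliferating-like cells held 4.09, 3.44 and 5.21 in the 8-week traced CD24+ libraries and 1.99 to 2.93 in the 5-day libraries, without overlap. In the same 3 8-week libraries Paneth-like cells held 0.965, 0.363 and 0.554, and tuft-like cells 0.226, 0.422 and 0.709; goblet-like cells held 0.507 to 2.06 and enteroendocrine-like cells 0.703 to 2.22. In 8-week stem-like cells Sis, Lct, Enpep and Alpi were at 0 in all 3 libraries. The lowest Mgam level in these cells was thus above the highest in the secretory classes of the same libraries, while its closest relative, Sis, was at 0. Neither the difference between classes at 8 weeks nor that between times was tested.

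Sis was also counted in enteroendocrine-like cells, the hormone-making cells of the gut lining. In the classes of the 8-week traced CD24+ libraries these held Sis at 0.734, 1.43 and 2.12 per 10000, those of the non-traced ones at 1.74 and 1.96, and those of the ungated library at 5.39 (5 cells). Alpi was at 0 in all 6 of these libraries, and tuft-like cells of the 3 8-week traced CD24+ libraries had Sis at 0. Over all libraries 34.5% of 110 enteroendocrine-like cells had a Sis transcript at 3000 transcripts per cell (exact 95% interval 25.7% to 44.2%, counting error only), against 0.725% of 138 tuft-like cells (0.0183% to 3.97%), at median depths of 6619 and 6957. Sis was not alone there: Mgam was found in 30% and Anpep in 10.9% of the same 110 enteroendocrine-like cells at that thinned depth. The 2 enteroendocrine clusters had different levels of Sis at 8 weeks. In the cluster led by Gip, Chgb, Cpe, Fabp5 and Cck, Sis stood at 2.21, 3.04 and 4.97 in the 8-week traced CD24+ libraries and at 2.20 and 2.23 in the non-traced ones. In the cluster led by Chga, Chgb and Tac1, Sis stood at 0.375, 0.628 and 0.883 and at 0.373 and 1.14 in the same libraries. Its 6 cells from the 5-day libraries had Sis at 2.40 (exact 95% counting interval 1.10 to 4.54). The leading genes of this cluster also included Tph1, Neurod1 and Neurog3, and Chgb was a leading gene of both clusters. The clusters were not compared by a test. The first cluster also had 4 of 14 mature enterocyte markers raised, and the part of other cells' RNA or of joined cells in its Sis was not tested.

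Anpep was low outside mature enterocytes in stem-like and most secretory cells alike. Stem-like cells held it at 0.173 to 0.393 per 10000 in 8-week traced CD24+ and at 0.186 to 0.587 in 5-day libraries. Paneth-like cells held it at 0.331, 0.726 and 0.415 in 8-week traced CD24+ libraries, 0.619 and 0.167 in non-traced ones, and 0.478, 0.365 and 0.192 in the 5-day libraries. Tuft-like cells of all 5 8-week CD24+ libraries had Anpep at 0. Tuft-like cells held Mep1b at 0.151, 0.105 and 0.118 in the traced and at 0.200 and 0.0942 in the non-traced 8-week CD24+ libraries, and Paneth-like cells held it at 0 in the traced, at 0.0475 and 0.0557 in the non-traced and at 0.0793 to 0.769 in the 5-day libraries. These are levels of a few transcripts per library.

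Mature cells of other times and gates were few. The library with the 3-week non-traced label had 10, the ungated 8-week library 3, the 3-week traced CD24+ library 1 and the 8-week CD24+ libraries 0 of 368 kept cells, which allows up to 0.815%. In the first, Sis stood at 30.1 per 10000 and Ces2e at 13.1; in the ungated 8-week library, at 14.9 and 11.7; and in the single 3-week traced cell, at 44.5 and 17.3. In each of the 4 tested 5-day libraries the order was the other way, with Ces2e at 16.3 to 25.997 above Sis at 8.01 to 15.1. The 2 mature cells of 5-day replicate 4 had Ces2e at 10.99 and Sis at 3.61. Fabp1 and Apoa4, genes of the upper small intestine, were 79.04 and 32.7 in the mature cells of the library with the 3-week non-traced label, 17.2 and 3.05 in those of the ungated 8-week library, and 37.3 to 65.6 and 3.98 to 56.2 in the 4 5-day libraries. Of the distal genes, Slc10a2 was at 0 in the mature cells of every library. Fabp6 was at 1.32 in those of 5-day replicate 5 and at 0 to 0.115 in the others, and Slc51b was at 0.585 to 1.48 in 6 libraries and at 0 in 5-day replicates 4 and 5. Each later group is 1 library, so time, gate and library cannot be told apart, and no test was made.

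Over whole libraries, the enzymes were compared between 5-day traced and 8-week traced CD24+ cells, the 2 traced groups with replicates. The summed level was 14.5 ± 3.55 per 10000 (SD, n = 5) at 5 days and 3.04 ± 0.32 (SD, n = 3) at 8 weeks. The libraries of the 2 groups differ in time, in gate and in sex, since Xist was at most 0.0134 per 10000 in the 5-day libraries and 0.903 to 1.65 in the 8-week ones, while the Y-linked Ddx3y was 0.197 to 0.424 against 0; these cannot be told apart. They also differ in cell make-up, with 32 mature enterocyte-like cells of 332 kept cells at 5 days and 0 of 221 at 8 weeks. At the level of a library, fewer cells of a type and less RNA per cell cannot be told apart either.

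Lct stood at 0.921, 0.783, 0.827, 0.608 and 0.263 per 10000 in the 5-day libraries and at 0 in all 3 8-week libraries. Against a floor of 3 counts over the 8-week group it was at least 65.3-fold higher at 5 days. Alpi stood at 1.52, 1.15, 2.06, 0.678 and 0.989 at 5 days and at 0.0145, 0 and 0.0126 at 8 weeks, where 3 transcripts were counted in all (edgeR quasi-likelihood, adjusted p = 1.29e-06), a ratio of 119 with an exact 95% counting interval of 40.6 to 581. Ces2e stood at 6.24, 5.00, 5.37, 3.27 and 3.39 against 0.218, 0.170 and 0.240, a 22.8-fold difference (log2 fold change 4.51 ± 0.27, adjusted p = 8.31e-08). For these 3 the groups lay far apart, and the lowest 5-day level of Lct was again that of replicate 5.

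Sis stood at 1.98, 1.77, 2.07, 1.43 and 1.12 per 10000 at 5 days and at 0.124, 0.295 and 0.316 at 8 weeks (log2 fold change 2.95 ± 0.28, adjusted p = 3.09e-06). Anpep ran from 0.477 to 2.15 against 0.239 to 0.283 (2.33 ± 0.37), Enpep from 0.378 to 1.04 against 0.00724 to 0.0377 (5.26 ± 0.48) and Mep1b from 0.725 to 1.48 against 0.0503 to 0.0773 (3.93 ± 0.34). Mgam stood at 3.97, 2.98, 2.71, 3.24 and 3.19 at 5 days and at 2.64, 2.22 and 1.82 at 8 weeks. Its groups came close without overlapping, and its difference was 1.504-fold (0.59 ± 0.15, adjusted p = 0.00683). All 8 enzymes were called higher at 5 days, where 18.4% of 8514 genes were called higher, 37.1% in either direction, and 36.6% had groups that did not overlap. Alpi, Enpep, Mep1b and Lct failed the filter on low counts among the 8-week CD24+ libraries, so they entered through the 5-day libraries and could only differ in that direction. The median log2 fold change was 4.22 for the 8, also with Lct at its bound, and -0.00 for all genes tested.

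**Figure D5:**
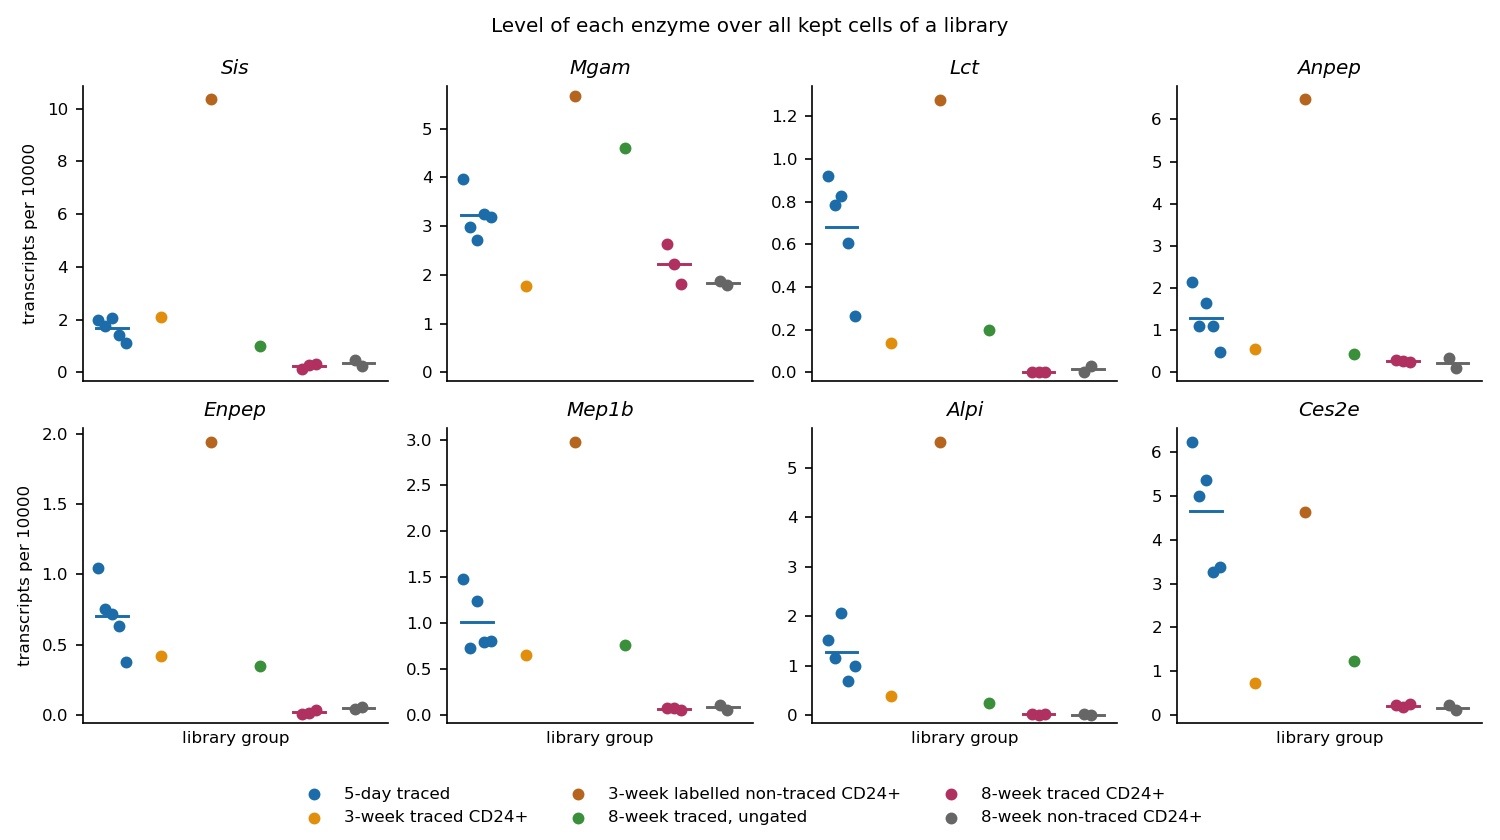
Level of each enzyme over all kept cells of a library (vertical axis, transcripts per 10000), with 1 point per library, 6 groups of libraries along the horizontal axis and a line at the mean of groups with more than 1. The library with the 3-week non-traced label has the highest level of every enzyme but Ces2e, and the 8-week CD24+ libraries lie near 0 for every enzyme but Mgam.

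When mature and early absorptive-like cells were left out of both groups, 6 of the 8 enzymes were still called. The share of all genes called without these cells is not given here; with them it was 37.1% of 8514 genes. Alpi, Enpep, Mep1b and Lct, 4 of the 6, were too low in the 8-week CD24+ libraries to pass the filter there. They could again only differ in that direction. Sis fell to a log2 fold change of 1.54 ± 0.62 (edgeR quasi-likelihood, adjusted p = 0.0740) and Mgam to 0.37 ± 0.18 (adjusted p = 0.134). Anpep was called at 1.15 ± 0.39 (adjusted p = 0.0374) and Mep1b at 3.06 ± 0.57 (adjusted p = 0.00105), both lower than with these cells. Ces2e stayed at 4.14 ± 0.21 (adjusted p = 1.48e-08), and Enpep was at 4.90 ± 0.92 (adjusted p = 0.00109). Alpi (adjusted p = 1.16e-05) and Lct (adjusted p = 0.000643) were called too. The unnamed cells of 5-day replicate 4 remain in that comparison, with the 8 enzymes at 15.1 per 10000.

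The lists followed the enzymes in part. Of 17 other mucosal hydrolases 9 could be tested and 7 were higher at 5 days, among them Ggt1 (gamma-glutamyltransferase, at least 35.4-fold higher against a floor of 3 counts over the 8-week group), Dpep1 (a dipeptidase, at least 24.03-fold), and Mme (neprilysin) with 1 transcript at 8 weeks against 0.304 per 10000 at 5 days. The 7 failed the filter on low counts among the 8-week CD24+ libraries and could only differ in this direction. The same holds for 1 of the 5 carboxylesterases and 2 of the 8 transporters that follow, and for Pdzk1, Maf and Creb3l3. All 5 testable carboxylesterases of 10 were higher, among them Ces1f (4.47), and so were all 8 testable transporters of 17, from the amino acid carrier subunit Slc7a9 (2.58) and the peptide carrier Slc15a1 (1.88) down to Slc3a2 (0.43). Brush border structure genes split, with 6 of 16 higher, such as Pls1 (0.98), Cobl (1.56) and the scaffold Pdzk1 (1 transcript at 8 weeks), 4 lower, such as the actin bundler Espn (which fell by 2.96 on the log2 scale), and 6 not called, Vil1 among them (-0.09). The 8-week CD24+ libraries held 43 tuft-like cells in the traced group, and tuft cells build microvilli of their own; the part of these cells in the structure genes was not tested. Of 14 testable transcription factors 6 were higher, among them Maf (3 transcripts at 8 weeks), Creb3l3 (3.62), Hnf4g (1.88) and Gata4 (1.59), 5 were lower and 3 were not called.

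Per cell the same contrast held at equal depth, in the same libraries, which differ in time, gate, sex and cell make-up. At 3000 transcripts per cell, 60.98% ± 11.2 (SD, n = 5) of the cells of a 5-day library had at least 2 of the 8 enzymes, from 46.03% to 72.1%, against 7.02% ± 2.32 (SD, n = 3) in 8-week traced CD24+ libraries, from 4.60% to 9.23%. The difference of 53.95 percentage points had p = 0.0179 when all assignments of libraries to the groups were enumerated (exact permutation test, two-sided), the smallest p this design allows. The ungated 8-week library had 13.8%, the 3-week traced CD24+ library 8.06%, the library with the 3-week non-traced label 48%, and non-traced cells at 8 weeks 5.95% and 9.52%.

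A library's level could rest on 1 cell. In the 3-week traced CD24+ library Sis stood at 2.09 per 10000, and its 1 mature enterocyte-like cell held 83.5% of them. The same cell held 93.7% of the Ces2e and 63.8% of the Mgam transcripts of that library.

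Between 8-week traced and non-traced CD24+ cells, which share time and gate, no enzyme was called. Mgam stood at 2.64, 2.22 and 1.82 per 10000 in traced and at 1.88 and 1.78 in non-traced libraries (log2 fold change 0.29 ± 0.18, edgeR quasi-likelihood, adjusted p = 0.429, 95% interval -0.06 to 0.64). Sis stood at 0.124, 0.295 and 0.316 against 0.453 and 0.232 (-0.66 ± 0.40, adjusted p = 0.422, interval -1.45 to 0.13). Anpep (0.14 ± 0.36) and Ces2e (0.28 ± 0.36) were not called either, and Alpi, Enpep, Mep1b and Lct were too low to be tested. The comparison called 4.23% of 8762 genes and had 18.1% at an unadjusted p under 0.05; of the 4 enzymes tested, 0 had an unadjusted p under 0.05 and DESeq2 called 0. Of the lists, the carboxylesterases Ces2a (1.87) and Ces1d (1.18) were higher in traced cells (2 of 4 testable), as was the proximal gut gene Onecut2 (0.95, 1 of 3), and 4 of 15 testable brush border structure genes, Espn (-1.50), Cdhr5 (-1.23), Cdhr2 (-1.22) and Myo1a (-0.82), were lower, beside tuft-like cells that numbered 43 in 221 traced and 71 in 147 non-traced cells.

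The genes most like the enzymes over classes and libraries were sought among 3524 genes, in 33 sums of 1 class in 1 library from the 5-day libraries and the ungated 8-week library. By Pearson's r of log2(CPM + 10) with the summed enzymes, the 10 nearest that are no members were Fth1 (ferritin heavy chain, 0.93), Mttp (0.93) and Fabp1 (0.92), which handle dietary fat, Gsta1 (0.92), Mogat2 (0.91), which rebuilds fat from absorbed monoglyceride, the glucose carrier Slc5a1 (0.90), Tm6sf2 (0.90), Adh6a (0.90), the retinal dehydrogenase Aldh1a1 (0.89) and the regulator Creb3l3 (0.89). Of the enzymes themselves, Anpep was nearest to the sum (0.93) and Mgam farthest (0.80). Each enzyme is itself part of that sum, so its r cannot be set beside those of the other genes. The points share libraries and differ in depth, Mttp, Fabp1, Gsta1 and Slc5a1 are among the markers that named classes, and the values are descriptions.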

How the data were processed

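For each gene in each cell the authors deposited an expected count, which they corrected for the chance that 2 transcripts share 1 of 256 molecular barcodes; this was read from the values, which are not scaled. BWA 0.6.2-r126 and the mm10 build come from the submitters' processing notes, and gene models are not given in the sources used here. A further deposited table repeats 7 of the libraries and served for names only.

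Clusters (scanpy 1.11.5, leidenalg 0.10.2; 2000 variable genes, 30 components, 10 neighbours, resolution 1) were made without the 8 enzymes from a random binomial part of each count (probability 0.5), and the remaining part was used to compare classes, with the library as a block. A cluster took the name of a marker list with at least 3 genes raised by 0.25 (log2) and 1 among its 10 leading genes. A lineage took precedence over proliferating in a tie, and a cluster drawn to more than 85% from a single library got no name; these naming rules were set after the data had been seen. No doublet detection was run.

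For tests, counts were summed per library, or per class and library, and rounded. The test was that of edgeR 4.0.16 (quasi-likelihood, TMM, filterByExpr), with Benjamini-Hochberg adjustment over all genes tested and a threshold of 0.05; DESeq2 1.42.0 was an alternative, and the other alternatives changed the filter, minimum depth, resolution, block and libraries. The SE of a log2 fold change was derived as its size divided by the square root of the F statistic. Its 95% interval is a normal approximation from that SE. Levels are transcripts per 10000 from all counts. Intervals of counts and shares are exact (95%); a count of 0 is given with the share that 3 counts would make. Both cover counting error only. The edgeR steps were tested on simulated counts. Replicate numbers did not pair libraries (residual correlations of -0.02 to 0.13). All 8 members are named, with up to 4 called genes of each list by size; a few more list genes were named after their values were seen, and 1 list gene is not reported here. The members and lists were chosen with earlier results of these data known.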

Additional observations from a re-analysis of the deposited data

Results flagged for a closer look

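Single libraries stood apart from the others of their group for 3 values among 37 sets of 4 or 5 libraries examined, by the size of their gap to the nearest library; chance gives about 1 in 20. Sis in early absorptive-like cells of the 5-day libraries was 0.142 per 10000 in replicate 4 (5 cells) and 1.05 to 1.20 in the other 4. In stem-like cells, 5-day replicate 5 had Sis at 0.71 per 10000, where the others had 0.0833 to 0.186, and Mep1b at 0.924, where the others had 0.161 to 0.244. Replicate 5 had 22 stem-like cells, and no cause was tested.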

How the results depend on the processing

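All 8 enzymes were called higher in mature than in early absorptive-like cells, and in 5-day than in 8-week traced CD24+ libraries, under DESeq2, no filter on low counts and each library left out, except that mature against early cells gave 7 of 7 tested without replicate 2 and at resolution 2. Minimum depths of 1500 and 5000 transcripts and resolution 0.5 gave no value for the comparisons of classes. At both depths no cluster took the early absorptive name, and clusters led by Dmbt1, a marker of that list, were named proliferating or tuft. At resolution 0.5 only a cluster of 18 cells took it, and too few libraries held 3 cells of both classes. The early absorptive class thus depended on depth and resolution. Over whole libraries both minimum depths gave 8 and 0 called enzymes, as before. Between early and stem-like cells 1 enzyme, Sis, was called with no filter on low counts, and Mgam turned to 0.14 at resolution 2. Leaving out absorptive cells ended the calls of Sis and Mgam at 5 days against 8 weeks. Between 8-week traced and non-traced cells, leaving out 1 library gave Anpep from -0.32 (without non-traced replicate 2) to 1.19 (without non-traced replicate 1) and Ces2e from -0.014 to 0.86 in the same way, none of them called; the lone non-traced library left is then assumed to vary like the traced ones. The replicate block, which pairs libraries by number only, left 8 enzymes called at 5 days against 8 weeks and 0 between 8-week traced and non-traced cells, where a block of replicate 1 against the later replicates also left 0; without the library as a replicate block, 8 enzymes were called between mature and early cells and 0 between early and stem-like cells. The share of cells with 2 or more enzymes differed by 34.7 to 68.4 percentage points over other thresholds and depths, and by 51.2 to 57.7 with 1 library left out. Sparse counts limit Lct, Enpep, Mep1b and Alpi outside mature cells.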
